A study of Mus musculus with 6 samples.

Results

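The mitochondrial carriers of the Slc25a family were taken as every gene whose symbol starts with Slc25a in the array annotation, which gave 46 of the 19937 genes measured. Where a gene had several probe sets, the brightest on average was used. The 46 genes had 50 probe sets between them. RNA came from fresh inguinal fat, the white depot under the skin of the groin, with 3 arrays of knockout (KO) mice of the genotype ATF7 KO and 3 arrays of wild-type (WT) littermates. The mice were males on a C57BL/6 background aged 5 weeks, bred from Atf7 heterozygotes and kept under specific-pathogen-free conditions at a controlled temperature. No other allele or agent is named for either group. The labels do not say which part of Atf7 is deleted, or whether an array holds 1 animal or a pool, so errors and p-values cover the spread between these arrays. By its title the series asks how ATF7, a transcription factor of the ATF/CREB family, acts on fat cell differentiation and thermogenic genes.

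The inner mitochondrial membrane is nearly impermeable to charged metabolites, and carriers of this family move them across it, most by exchanging one substrate for another. In fat cells they bring in acylcarnitines for oxidation, export citrate for fatty acid synthesis, exchange ADP for ATP, and supply phosphate, amino acids and cofactors to the matrix. The uncoupling proteins belong to the same protein family under other gene names, and Ucp1 is the proton leak of heat-producing fat.

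All values below are log2 expression values of 1 array each, as deposited after RMA normalization, and a difference is the KO mean minus the WT mean on that scale. The differences were tested with limma in 1 fit over all 19937 genes, with Benjamini-Hochberg adjustment over all of them. Errors are SD over 3 arrays or limma's standard error (SE), and intervals are 95% intervals from the same fit. Of the targeted gene, probe set 10433032 read 6.22, 6.53 and 6.49 in KO against 8.95, 9.20 and 9.07 in WT, a difference of -2.66 (adjusted p = 0.00658 over all probe sets from limma), while probe set 10433034 differed by -0.17. Fat tissue was checked on adipocyte genes, which do not tell fat depots apart, so the depot rests on the label. Of 9 listed, 8 were measured, 4 with a positive difference and 0 at p under 0.05 before adjustment. Their level was -0.02, -0.04 and 0.17 in KO against -0.08, 0.15 and -0.18 in WT. Fabp4, a fatty acid carrier, lay between 12.62 and 12.78 in KO and between 12.56 and 12.64 in WT, and Plin1, a lipid droplet coat protein, between 11.81 and 12.12 in KO and between 11.67 and 11.86 in WT. KO replicate 3 stood apart from the other arrays. Across probe sets its correlation with them was 0.969 to 0.981, against 0.984 to 0.990 among the other 5 arrays. It also had a mean centred level of -2.58 over 24 measured T cell and B cell genes (of 28 listed), where the other KO arrays had -0.12 and 0.66 and the WT arrays 0.55 to 0.81. All 24 genes had a negative difference, where 53% of all genes had a positive one. Lower at an unadjusted p under 0.05 were 4 of 13 T cell genes and 0 of 11 B cell genes, beside 2.48% of all genes. A level over 16 skeletal muscle genes (16 listed) ran from -1.35 to 1.34 in KO and from -1.29 to 2.05 in WT. In whole tissue, fewer cells of a type and less RNA per cell cannot be told apart.

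The carriers as a family differed little between the genotypes, and more members had a positive than a negative difference. The carriers of coenzyme A (Slc25a42), pyrimidine nucleotides (Slc25a33) and NAD (Slc25a51) were higher in KO by 1.30 to 1.51 times, and the ornithine carrier Slc25a2 was lower, all at p under 0.05 before adjustment. The main carriers of oxidative phosphorylation, for phosphate and for ADP and ATP, were close in both groups. No member passed adjustment over all genes, where 0 of 19937 genes (0%) passed and the smallest adjusted p of a member was 0.622. That 0 rests on the probe set rule, which takes the brighter probe set of Atf7. With the mean of all probe sets, or with each probe set on its own, 1 feature passed, Atf7 itself. At the unadjusted threshold 3 of 46 members were higher, or 6.52%, beside 4.99% of all genes. Lower at that threshold was 1 member, or 2.17%, beside 2.48% of all genes. These shares are near the background, so the counts show nothing about the family. A positive difference was seen in 32 of 46 members, or 69.6%, beside 53% of all genes, and the median difference was 0.10 beside 0.01. Without KO replicate 3 the difference was positive in 27 members beside 48.5% of all genes, and the median over members was 0.04. With the lymphocyte level as a covariate it was positive in 26 members beside 48.1% of all genes, with a median of 0.03.

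**Figure D1:**
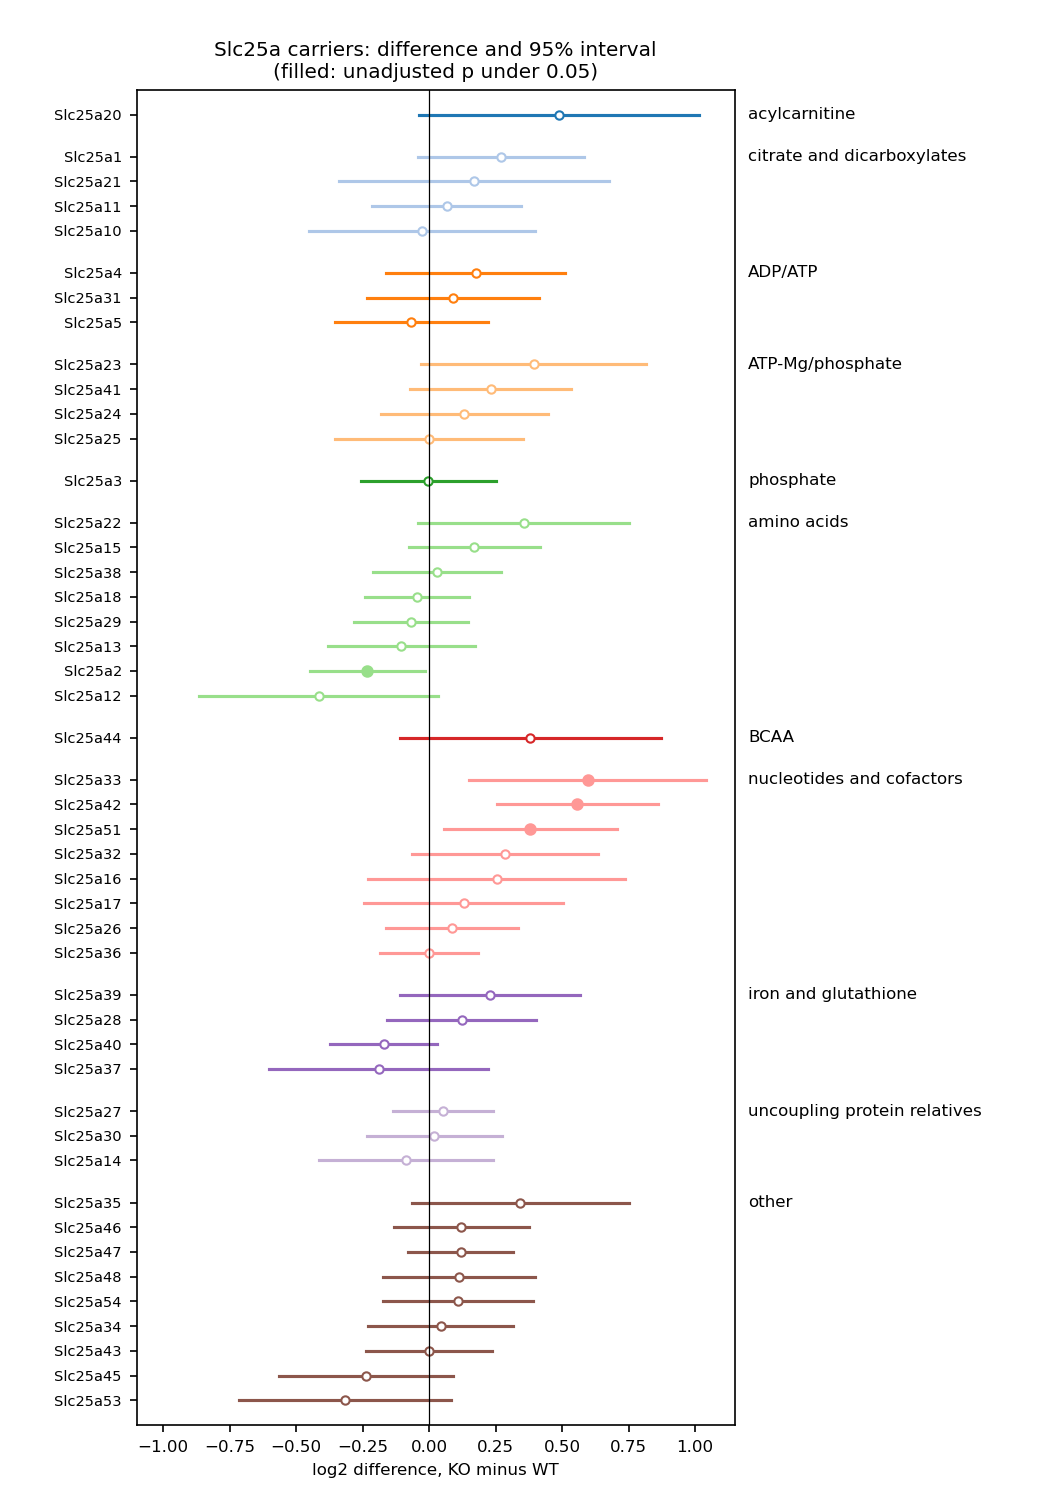
Difference between KO and WT (log2, x axis) for each of the 46 Slc25a genes, grouped by substrate, with 95% intervals from limma; filled points have an unadjusted p under 0.05. The filled points are Slc25a33, Slc25a42 and Slc25a51 among the nucleotide and cofactor carriers, above 0, and Slc25a2 among the amino acid carriers, below 0.

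The design bounded the size of most differences. For 44 of 46 members, or 95.7%, the whole interval lay between -1 and 1 on the log2 scale, a range of 2-fold either way, beside 94.8% of all genes. The exceptions were Slc25a20 and Slc25a33, whose upper bounds were 1.01 and 1.04. For 26 members the interval lay between -0.5 and 0.5, which is 56.5% of members beside 67.9% of all genes. The KO values were all higher than the WT values for 4 members, or 8.70%, beside 7.96% of all genes, and all lower for 3, or 6.52%, beside 5.97%. The 4 were Slc25a33, Slc25a42, Slc25a51 and Slc25a47, and the 3 were Slc25a2, Slc25a12 and Slc25a40. A dimmer probe set of Slc25a40 separated the groups the other way, as given below. An exact permutation test of a single gene cannot go below p = 0.1 with 3 arrays against 3.

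**Figure D2:**
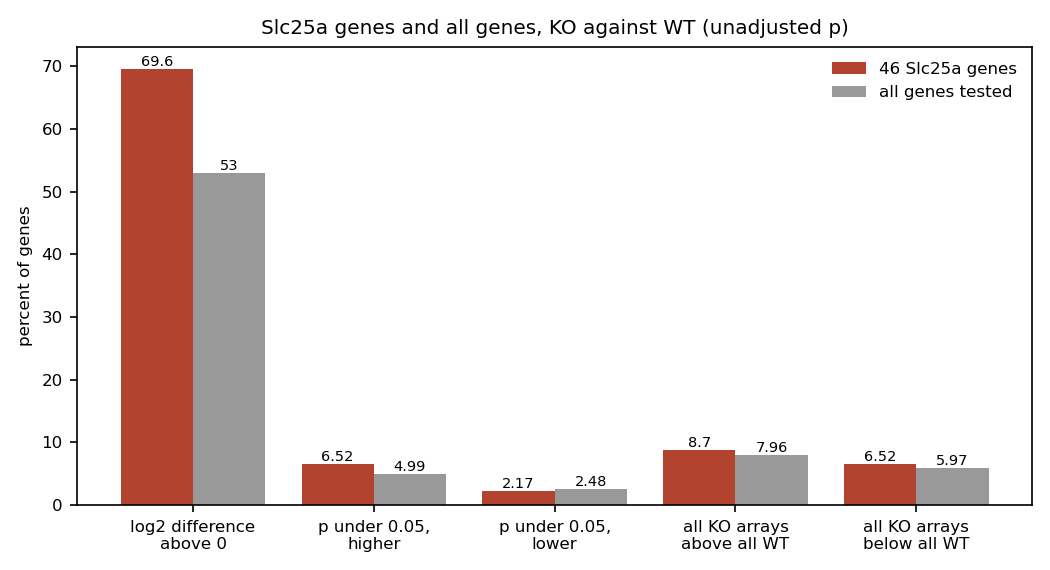
Percent of the 46 Slc25a genes and of all genes tested (y axis) that had a positive difference, an unadjusted p under 0.05 in each direction, or no overlap between the KO and the WT arrays. The 2 bars of a pair are close except for positive differences, at 69.6% of Slc25a genes and 53% of all genes.

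Carriers of nucleotides and cofactors held the 3 higher members. Of 8 measured carriers in this group, 7 were positive, 3 were higher at p under 0.05 before adjustment and 0 were lower, with a median of 0.27. Over all genes 53% were positive and 4.99% were higher at that threshold, and the group was singled out for holding all 3 higher members, so nothing is read from its count. Slc25a42, which brings coenzyme A into the matrix, read 8.65, 8.75 and 8.87 in KO against 8.35, 8.28 and 7.96 in WT. The KO arrays were all the higher ones, and WT replicate 3 was the lowest of the 6. The difference was 0.56 (SE 0.13, interval 0.25 to 0.86), or 1.47-fold, with an unadjusted p of 0.00329 from limma and an adjusted p of 0.622. Slc25a33, a carrier of pyrimidine nucleotides used for mitochondrial DNA and RNA, read 6.50, 6.60 and 6.86 in KO against 6.20, 6.31 and 5.66 in WT. The groups did not overlap, and WT replicate 3 was again the lowest, by a wide margin. Its difference was 0.60 (SE 0.19, interval 0.15 to 1.04), or 1.51-fold, and it was 0.40 without WT replicate 3. Slc25a33 was dimmer than the median gene. Slc25a51, the carrier of NAD, read 9.997, 9.83 and 10.30 in KO against 9.66, 9.77 and 9.55 in WT. The nearest arrays of the groups, KO replicate 2 and WT replicate 2, were almost level. The difference was 0.38 (SE 0.14, interval 0.06 to 0.70), or 1.30-fold, with an unadjusted p of 0.0273 in limma's fit.

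These 3 differences varied with the arrays that entered. Leaving out each array in turn, limma's unadjusted p stayed under 0.05 for Slc25a42 (at most 0.00927) and Slc25a33 (at most 0.0415), and was 0.0532 to 0.0875 for Slc25a51 without KO replicate 1 or 3 or WT replicate 1 or 3. With the lymphocyte level as a covariate the differences were 0.48 for Slc25a42, 0.44 for Slc25a33 and 0.18 for Slc25a51, with limma's unadjusted p at 0.0155, 0.0752 and 0.127. The lymphocyte level was -2.58 on KO replicate 3 and -0.12 to 0.81 on the other arrays. That fit therefore cannot tell lymphocyte RNA apart from other traits of KO replicate 3. The part of lymphocyte RNA in these differences was not tested. In the rest of the group Slc25a32, which carries folate and FAD, differed by 0.28 (interval -0.065 to 0.63). Slc25a36, a second pyrimidine nucleotide carrier, was level at 9.39, 9.41 and 9.45 in KO and 9.41, 9.43 and 9.42 in WT. Its interval, -0.19 to 0.18, lay close around 0. The median of the group was 0.12 without KO replicate 3 and 0.05 with the lymphocyte level as a covariate.

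**Figure D3:**
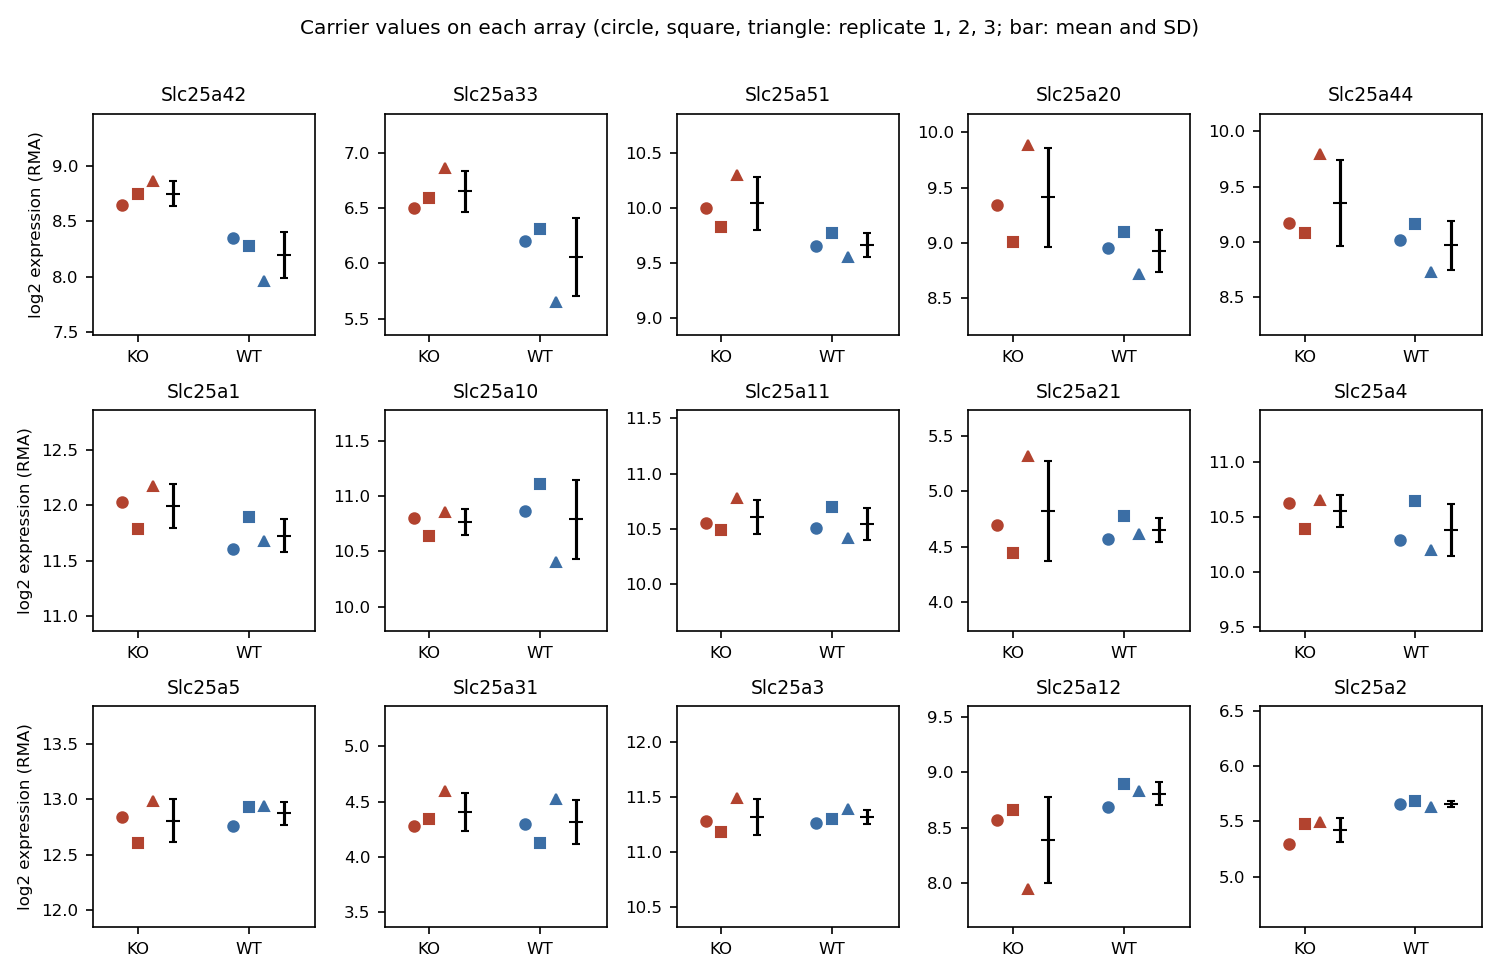
Expression (log2, y axis, each panel spanning 2 units) of 15 carriers on each KO and WT array, with symbols for the replicate and a bar for mean and SD over 3 arrays. For Slc25a42, Slc25a33 and Slc25a51 the KO points all lie above the WT points, for Slc25a12 and Slc25a2 they all lie below, and in the other panels the groups overlap.

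ATF7 binds the cAMP response element, whose core is TGACGTCA, and promoters of the carriers were searched for it on both strands. RefSeq promoters (GRCm38.p6, 250 bases before to 50 after a start) were at hand for 36 of 46 members, as 46 promoters, without Slc25a51 and Slc25a44. The core stood in 2 of these 46 promoters, or 4.35%, beside 1.79% of 32851 promoters of all genes. The shorter letters TGACGT, which the core contains, stood in 5, or 10.9%, beside 7.51%. The element of the estrogen-related receptors, TCAAGGTCA, stood in 0 of 46, beside 0.423%. The promoters of 2 members higher in KO and of the 2 members with the core are shown, in lower case with the core or these shorter letters in capitals.

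Slc25a42 (chr8:70212232-70212531, minus strand): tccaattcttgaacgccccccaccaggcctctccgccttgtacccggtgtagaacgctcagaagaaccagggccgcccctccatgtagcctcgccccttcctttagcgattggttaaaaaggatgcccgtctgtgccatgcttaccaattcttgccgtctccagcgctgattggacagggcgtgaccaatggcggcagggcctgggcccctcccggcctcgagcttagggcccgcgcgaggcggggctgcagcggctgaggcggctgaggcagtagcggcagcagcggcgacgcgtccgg

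Slc25a33 (chr4:149774218-149774517, minus strand): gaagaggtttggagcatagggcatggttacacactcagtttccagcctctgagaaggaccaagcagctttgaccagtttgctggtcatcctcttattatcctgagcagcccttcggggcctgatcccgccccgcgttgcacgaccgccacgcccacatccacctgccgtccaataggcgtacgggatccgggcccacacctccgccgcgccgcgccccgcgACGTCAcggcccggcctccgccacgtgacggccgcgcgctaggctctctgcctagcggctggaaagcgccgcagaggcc

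Slc25a25 (chr2:32424017-32424316, minus strand): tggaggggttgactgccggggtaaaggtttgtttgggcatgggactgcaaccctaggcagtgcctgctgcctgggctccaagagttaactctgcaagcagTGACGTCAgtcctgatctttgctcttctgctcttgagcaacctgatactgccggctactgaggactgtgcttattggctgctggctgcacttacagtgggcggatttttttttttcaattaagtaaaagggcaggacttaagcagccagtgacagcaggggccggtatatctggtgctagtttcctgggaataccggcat

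Slc25a36 (chr9:97110992-97111291, minus strand): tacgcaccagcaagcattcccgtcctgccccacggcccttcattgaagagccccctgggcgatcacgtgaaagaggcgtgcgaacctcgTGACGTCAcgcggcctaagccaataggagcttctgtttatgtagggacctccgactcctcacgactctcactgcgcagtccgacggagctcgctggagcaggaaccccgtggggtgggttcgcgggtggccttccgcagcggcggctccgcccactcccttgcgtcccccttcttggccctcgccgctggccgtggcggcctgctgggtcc

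The core began 150 bases before the start in Slc25a25 and 161 bases before it in Slc25a36. Neither gene differed detectably between KO and WT. Slc25a25, which exchanges ATP-Mg for phosphate, read 7.26, 6.84 and 6.90 in KO against 7.21, 6.86 and 6.92 in WT, an interval of -0.35 to 0.35, and Slc25a36 was level as given above. The promoter of Slc25a33 held the shorter letters without the core, on the opposite strand and so printed as their reverse complement, 29 bases before the start. They also stood without the core in those of Slc25a1 and Slc25a3. Neither the core nor the shorter letters were in the window of Slc25a42. A match describes these windows and says nothing about binding.

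Entry of fatty acids was represented by Slc25a20, the carnitine-acylcarnitine carrier, through which long-chain acyl groups reach the matrix for oxidation. It read 9.34, 9.01 and 9.89 in KO against 8.95, 9.10 and 8.72 in WT. KO replicates 1 and 3 were above all WT arrays, while KO replicate 2 lay below WT replicate 2. The difference was 0.49 (SE 0.22, interval -0.04 to 1.01), or 1.40-fold, with an adjusted p of 0.622 from limma. Without KO replicate 2 it was 0.69. It was 0.25 without KO replicate 3 and 0.12 with the lymphocyte level as a covariate. Of 5 partner genes measured (6 listed), 4 were positive, beside 53% of all genes. At p under 0.05 before adjustment 1 was higher, beside 4.99%. Without KO replicate 3 there was 1, beside 3.1% of all genes, and without WT replicate 2 there were 2, beside 4.06%. With the lymphocyte level as a covariate there were 0, beside 2.26%. The 1 of the main fit was Slc22a5, the plasma membrane carnitine transporter. It was 8.38, 8.22 and 8.64 in KO against 8.12, 7.96 and 7.84 in WT, a difference of 0.44. Crat, carnitine acetyltransferase, differed by 0.25, Cpt1c, the brain form of the outer acyltransferase, by 0.22, and Cpt2, which returns acyl groups to coenzyme A inside, by 0.32. Cpt1a, an outer membrane acyltransferase that starts the route, differed by -0.17 with an SE of 0.25.

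Citrate and dicarboxylate carriers were close, with 3 of 4 positive, 0 at p under 0.05 before adjustment in either direction and a median of 0.12. The median was -0.047 without KO replicate 3 and -0.096 with the lymphocyte level as a covariate, with 1 of 4 positive in each, so the group has no settled sign. Slc25a1, which exports citrate for fatty acid synthesis, read 12.03, 11.79 and 12.18 in KO against 11.61, 11.90 and 11.67 in WT. KO replicate 2 lay inside the WT range and the other KO arrays above it. The difference was 0.27 (SE 0.13, interval -0.04 to 0.58), or 1.21-fold, against 0.18 without KO replicate 3 and 0.12 with the lymphocyte level as a covariate. Slc25a10, the dicarboxylate carrier, which exchanges malate or succinate for phosphate, read 10.80, 10.64 and 10.86 in KO against 10.86, 11.11 and 10.40 in WT. The WT arrays spread more widely and enclosed the KO arrays, with a difference of -0.03 (interval -0.45 to 0.40). Slc25a11, the oxoglutarate-malate carrier, read 10.55, 10.49 and 10.78 in KO against 10.51, 10.70 and 10.42 in WT, a difference of 0.07 (interval -0.22 to 0.35). The oxoadipate carrier Slc25a21 was dim, at 4.70, 4.44 and 5.32 in KO and 4.57, 4.77 and 4.61 in WT. Only KO replicate 3 exceeded the WT range, and the difference was 0.17 (interval -0.34 to 0.67). Among citrate partners 6 of 7 measured (8 listed) were positive, beside 53% of all genes. At p under 0.05 before adjustment 2 were higher, beside 4.99%. Without KO replicate 3 there were 2, beside 3.1% of all genes, and without WT replicate 2 there were 3, beside 4.06%. With the lymphocyte level as a covariate there were 0, beside 2.26%. The 2 of the main fit were Cs, citrate synthase (0.35, SE 0.11), and Acaca, the acetyl-CoA carboxylase of fatty acid synthesis (0.35, SE 0.12). They were followed by Mdh2 (0.30, SE 0.14) and Acly, which splits citrate in the cytosol (0.35, SE 0.17).

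ADP/ATP carriers did not differ beyond their spread. Slc25a4, the form prominent in muscle and heart, read 10.62, 10.39 and 10.65 in KO against 10.29, 10.65 and 10.20 in WT. WT replicate 2 was about as high as the highest KO array, and the difference was 0.17 (interval -0.16 to 0.51). That array also had the highest skeletal muscle level, 2.05, and without it the difference was 0.31, with an unadjusted p of 0.0452 from limma. With the muscle level as a covariate Slc25a4 differed by 0.23 (unadjusted p of 0.154 from limma), and with the lymphocyte level by 0.072. KO replicate 3, with the highest Slc25a4 value, had the lowest muscle level, -1.35. The part of muscle RNA in these differences was not tested. Slc25a5, the widely expressed form, read 12.84, 12.60 and 12.98 in KO against 12.76, 12.93 and 12.94 in WT. Its difference of -0.07 had an interval of -0.35 to 0.22, and its other 2 probe sets differed by 0.11 and 0.01. Slc25a31, the form of the male germ line, was dim at 4.28, 4.35 and 4.60 in KO and 4.30, 4.13 and 4.52 in WT, a difference of 0.09 (interval -0.23 to 0.41). The median of the 3 was 0.089, and it was -0.0065 without KO replicate 3, -0.0052 without WT replicate 2 and -0.021 with the lymphocyte level as a covariate. In the main fit none of the 3 passed at p under 0.05 before adjustment.

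Phosphate enters through Slc25a3, which read 11.28, 11.18 and 11.49 in KO against 11.27, 11.30 and 11.39 in WT. The groups overlapped throughout, with a difference of 0.00 and an interval of -0.26 to 0.25. The ATP synthase genes, which use what Slc25a3 and the ADP/ATP carriers supply, were counted beside them. Of 15 measured (16 listed), 12 were positive, 5 were higher and 1 was lower at p under 0.05 before adjustment, with a median of 0.26. Over all genes 53% were positive, 4.99% higher and 2.48% lower. The level of the list was highest on KO replicate 3, at 0.25. Without that array 2 of the 15 were higher and 0 lower, beside 3.1% and 1.9% of all genes, with a median of 0.18. With the lymphocyte level as a covariate 2 were higher and 0 lower, beside 2.26% and 1.63%, with a median of 0.11. Atp5o differed by 0.45 (SE 0.12), Atp5a1 by 0.35 (SE 0.13), Atp5k by 0.43 (SE 0.16), Atp5l by 0.56 (SE 0.23) and Atp5e by 0.34 (SE 0.14), all of them subunits. The lower one was Atpif1, the inhibitory factor of the enzyme, at -0.23 (SE 0.10). Whether ATP synthase genes differed from their carriers was not tested.

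The ATP-Mg/phosphate carriers, which adjust the adenine nucleotide pool of the matrix and bind calcium in most forms, were all 4 at or above 0 with a median of 0.18, and none passed at p under 0.05 before adjustment. Slc25a23 read 9.31, 9.07 and 9.75 in KO against 9.01, 9.11 and 8.83 in WT, a difference of 0.39 (interval -0.03 to 0.82). KO replicate 2 lay within the WT range, and the difference was 0.20 without KO replicate 3 and 0.11 with the lymphocyte level as a covariate.

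Amino acid carriers were the group with most members below 0. Of 8 measured, 3 were positive, 0 were higher and 1 was lower at p under 0.05 before adjustment, with a median of -0.06. Over all genes 53% were positive, 4.99% higher and 2.48% lower. The group was singled out by its values, so nothing is read from its count. Slc25a2, an ornithine carrier, read 5.30, 5.48 and 5.50 in KO against 5.66, 5.68 and 5.63 in WT. Every KO array lay below the narrow WT range. The difference was -0.23 (SE 0.09, interval -0.45 to -0.02), with an unadjusted p of 0.0379 and an adjusted p of 0.622 from limma, and the unadjusted p was 0.0635 to 0.137 without KO replicate 1 or any 1 WT array. With the replicate number as a block it was 0.0639, and that of Slc25a51 was 0.0578. The signal of Slc25a2 was below that of the median gene. Slc25a12, the aspartate-glutamate carrier of excitable tissues and a step of the malate-aspartate shuttle, read 8.57, 8.66 and 7.95 in KO against 8.69, 8.89 and 8.84 in WT. The groups did not overlap, and KO replicate 3, with the lymphocyte level of -2.58, was far the lowest. The difference of -0.42 (interval -0.86 to 0.03) was -0.19 without that array and -0.11 with the lymphocyte level as a covariate. Slc25a13, its counterpart best known from liver, differed by -0.10 (interval -0.38 to 0.17). Slc25a22, a glutamate carrier, differed the other way by 0.36 (interval -0.04 to 0.75), and by 0.20 without WT replicate 3.

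The enzymes of the malate-aspartate shuttle, which carries reducing equivalents into the matrix, showed 2 of 4 positive and 0 at p under 0.05 before adjustment. Over all genes 53% were positive, 4.99% higher and 2.48% lower. Got2, the mitochondrial aspartate aminotransferase, read 9.65, 9.72 and 9.58 in KO against 9.76, 9.90 and 9.91 in WT. As with Slc25a12, the groups did not overlap, at a difference of -0.21 (SE 0.09). Got1, the cytosolic form, differed by 0.00, and the malate dehydrogenases Mdh1 and Mdh2 by 0.15 and 0.30.

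Branched-chain amino acids enter through Slc25a44, described in brown fat as their mitochondrial importer. It read 9.17, 9.08 and 9.80 in KO against 9.02, 9.16 and 8.73 in WT. KO replicate 3 alone stood well above WT, and KO replicate 2 lay below WT replicate 2. The difference was 0.38 (SE 0.21, interval -0.11 to 0.87), or 1.30-fold, and it was 0.16 without KO replicate 3 and 0.06 with the lymphocyte level as a covariate. Of the 8 breakdown genes, 7 were positive, beside 53% of all genes, and 1 was higher at p under 0.05 before adjustment, beside 4.99%. Their median was 0.28. None was higher without KO replicate 3, beside 3.1% of all genes, or with the lymphocyte level as a covariate, beside 2.26%. The medians in these fits were 0.17 and 0.10. Without WT replicate 2 there were 2 higher, beside 4.06%. The higher one of the main fit was Bckdk, the kinase that inhibits the branched-chain dehydrogenase (0.27, SE 0.11). Its opposing phosphatase Ppm1k differed by 0.30 (SE 0.15). The dehydrogenase subunits Dld and Bckdhb differed by 0.42 (SE 0.21) and 0.39 (SE 0.20).

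**Figure D4:**
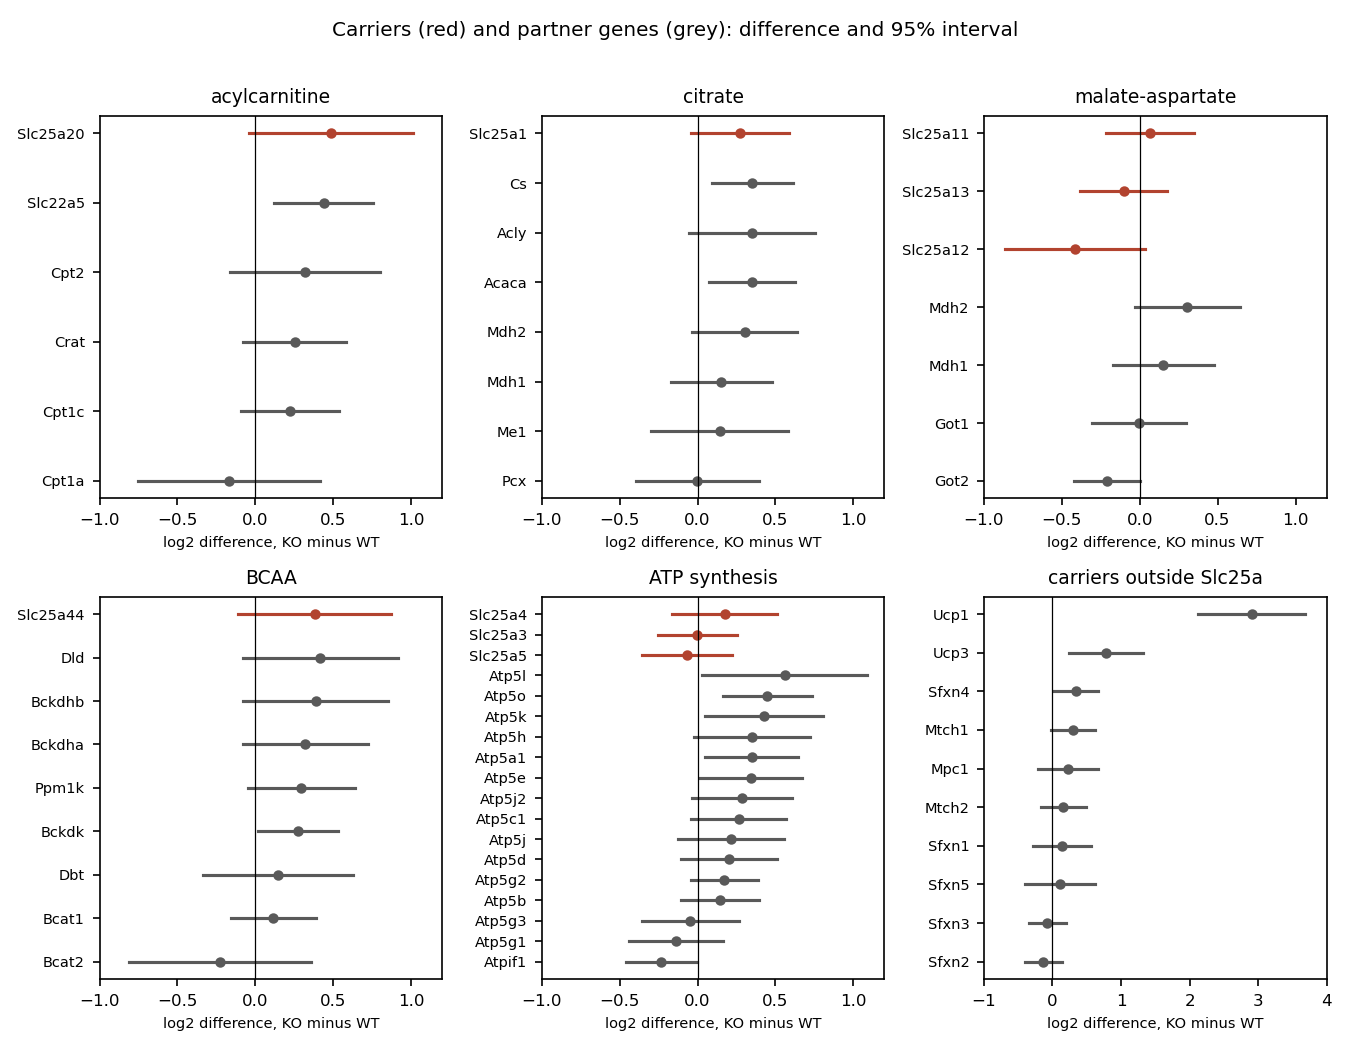
Difference between KO and WT (log2, x axis) with 95% intervals for carriers (red) and partner genes (grey) of 5 routes, and for carriers outside the Slc25a symbols. Slc25a20, Slc25a1 and Slc25a44 lie above 0 with intervals that reach it, Slc25a3 and Slc25a5 lie at about 0, and Ucp1 lies far above.

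Iron and glutathione carriers split evenly, with 2 of 4 positive, 0 at p under 0.05 before adjustment and a median of -0.02. Slc25a39, a glutathione carrier, differed by 0.23 (interval -0.11 to 0.57). Its relative Slc25a40 read 6.83, 6.85 and 6.84 in KO against 7.10, 6.94 and 6.99 in WT, with no overlap, for a difference of -0.17 (interval -0.37 to 0.03). A dimmer probe set of Slc25a40 differed by 0.31 in the other direction, so the gene has no settled sign here. The relatives of the uncoupling proteins, Slc25a14, Slc25a27 and Slc25a30, had differences between -0.09 and 0.05. Among 9 other members, whose substrates were not assigned here in most cases, 7 were positive and differences ran from -0.32 for Slc25a53 to 0.34 for Slc25a35. Slc25a47, a carrier of liver, was at 6.49, 6.61 and 6.58 in KO against 6.44, 6.41 and 6.48 in WT, without overlap but by 0.12 (interval -0.08 to 0.32). Slc25a35 read 10.23, 9.84 and 10.44 in KO against 9.82, 10.02 and 9.65 in WT, where KO replicate 2 was again inside the WT range.

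Inner membrane carriers and their relatives with other symbols were set beside the family. Of 10 measured (12 listed), 8 were positive, 3 were higher at p under 0.05 before adjustment and 0 were lower. Over all genes 53% were positive, 4.99% higher and 2.48% lower. Without KO replicate 3 there were 2 higher, beside 3.1% of all genes, and with the lymphocyte level as a covariate 1, beside 2.26%. Ucp1, at 9.36, 8.76 and 9.65 in KO against 7.04, 5.97 and 6.05 in WT, differed by 2.91, where the Slc25a members reached at most 0.60. Ucp3, its relative in muscle and brown fat, differed by 0.78 (SE 0.23) and Sfxn4, of the sideroflexins, by 0.34 (SE 0.14). Mtch1, an outer membrane protein of the same fold, differed by 0.30 (SE 0.14). None of these passed adjustment over all genes.

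Single arrays held many of the highest and lowest values of the carriers. KO replicate 3 was the highest of the 6 arrays for 27 of 46 members, or 58.7%, beside 31.4% of all genes. WT replicate 3 was the lowest for 16 members, or 34.8%, beside 20.2%. The mean centred level of the members was 0.04, -0.03 and 0.14 in KO against -0.04, 0.00 and -0.11 in WT, so KO replicate 2 lay among the WT arrays. For the nucleotide and cofactor carriers it was 0.08, 0.00 and 0.35 in KO against -0.13, 0.01 and -0.31 in WT. Without KO replicate 2 there were 7 members higher and 4 lower at p under 0.05 before adjustment, beside 10.4% and 8.47% of all genes, and without WT replicate 2 there were 8 higher and 0 lower, beside 4.06% and 2.03%. WT replicate 2 also had a level of 1.46 over 6 epithelial and mammary genes, where the KO arrays had -0.40 to -0.29 and the other WT arrays -0.23 and -0.22. The part of that tissue in the counts was not tested. The members that joined the higher ones were Slc25a1, Slc25a20, Slc25a23 and Slc25a35 without KO replicate 2, and Slc25a1, Slc25a4, Slc25a22, Slc25a32 and Slc25a39 without WT replicate 2. Slc25a12, Slc25a37 and Slc25a53 joined the lower one without KO replicate 2. With the lymphocyte level as a covariate 1 member was higher, Slc25a42, and 1 lower, Slc25a2, beside 2.26% and 1.63%.

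**Figure D5:**
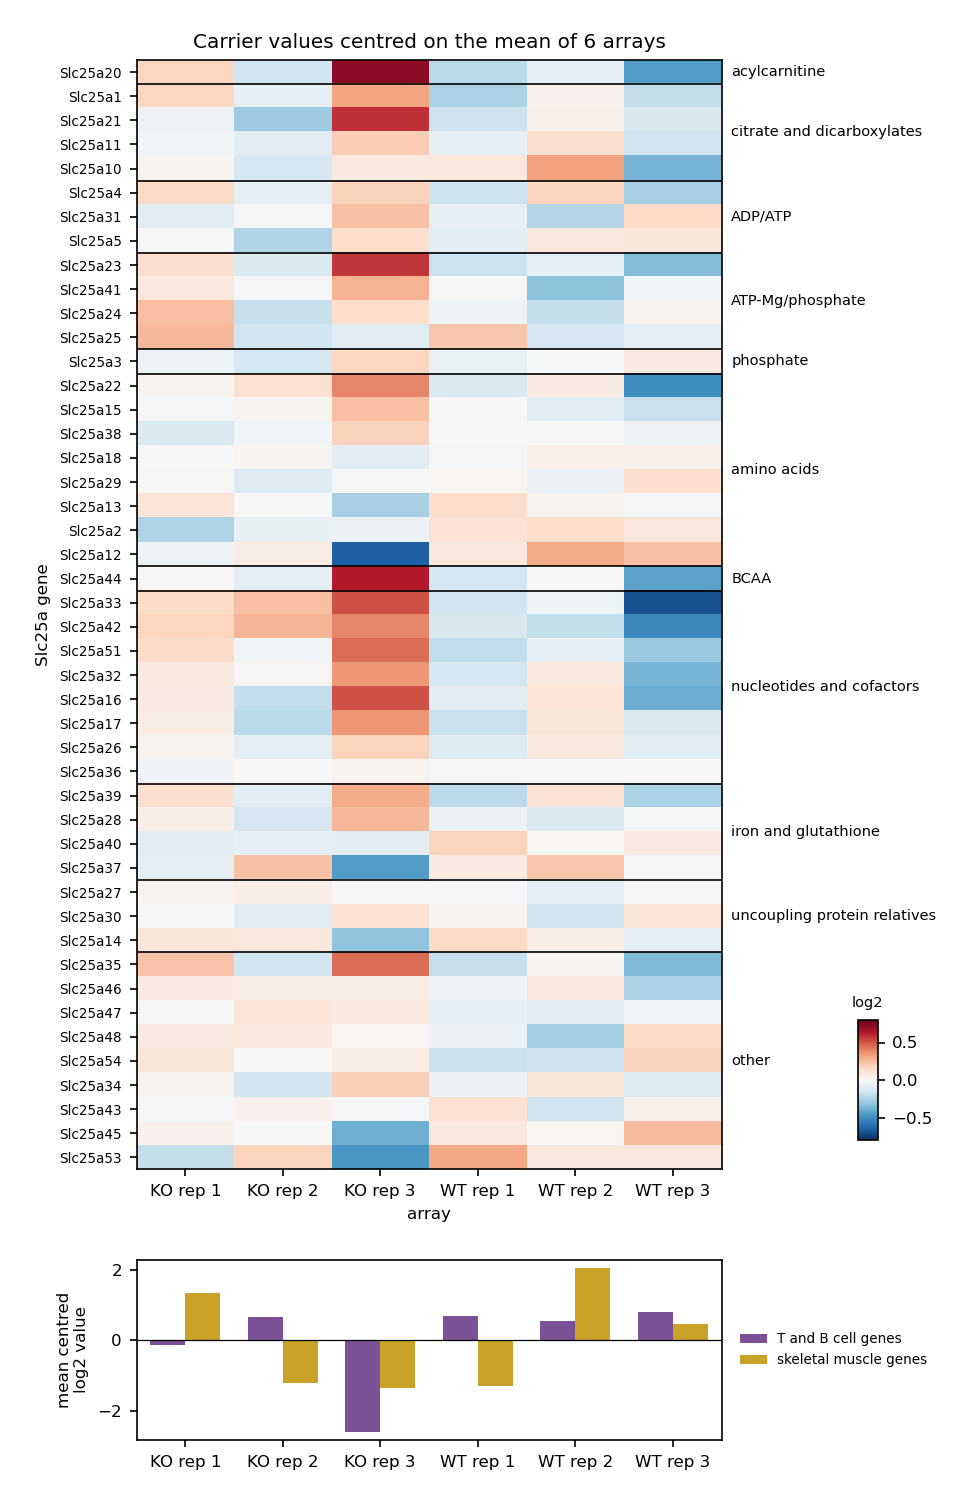
Values of the 46 Slc25a genes on each array, each centred on its mean over 6 arrays (colour, log2), with the T and B cell level and the skeletal muscle level of the same arrays as bars below. KO replicate 3 is the highest array for 27 of the genes and has the lowest T and B cell level, -2.58.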

How the data were processed

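Expression was measured on 6 arrays, 3 KO and 3 WT, grouped and numbered by their sample titles. The deposited table holds log2 values for 34760 probe sets, and the submitters' processing notes name RMA, affy and limma. RMA normalizes between arrays, which can hide a change common to most genes. The array medians ran from 6.41 to 6.49, and shifting them to a common median moved the median difference of all genes to 0.04, with 60.1% of genes positive against 53%. The notes give no options, versions or genome build. The values ran from 1.44 to 14.15, and the table holds no detection calls. The number of arrays limits the precision.

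By the annotation of the array, 21640 probe sets had 1 symbol, 1321 several and 11799 none. Those with 1 symbol gave 19937 genes, each by its brightest probe set. The test was that of limma 3.58.1, run in R 4.3.3 (lmFit, eBayes, two-sided, no filter), adjusted by the Benjamini-Hochberg method, with a threshold of 0.05. The fit was tested on simulated data. The members, substrate groups, partner lists and marker lists were chosen with earlier results of these data known. Members in the acylcarnitine, citrate and dicarboxylate, ADP/ATP, phosphate and branched-chain groups, and members at p under 0.05 before adjustment, were named by rule, which gave 14. Up to 4 genes per partner list were named by smallest p, and Cpt1a, Atp5e and Atpif1 were added after their values were seen. Other members named, such as those without overlap, were chosen after their values were seen. List levels are means of gene values centred over the 6 arrays. Protein sequences were not used here. Alternatives left out each array, added the replicate block, lymphocyte or muscle level, or changed normalization, filter, probe set rule or variance model. Fits of the partner lists and substrate groups without KO replicate 3 or WT replicate 2, or with the lymphocyte level, were chosen after seeing the data.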

Additional observations from a re-analysis of the deposited data

How the results depend on the processing

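No Slc25a member passed adjustment over all genes in the main fit or in any of 16 alternatives, and the median difference over members was between 0.03 and 0.13 in all of them. The number of members higher at p under 0.05 before adjustment, 3 in the main fit, ran from 2 to 8 with each array left out. Over all genes that share ran from 2.81% to 10.4%, against 4.99% in the main fit. The 8, without WT replicate 2, stood beside 4.06%. The number was 7 with gene-by-gene array weights (8.1% of all genes) and 1 with the lymphocyte level as a covariate (2.26%). The number lower, 1 in the main fit, ran from 0 to 4 with each array left out. Over all genes that share ran from 0.963% to 8.47%, against 2.48% in the main fit. The number lower was 3 with array weights (6.67% of all genes). It was 0 with the replicate block, with arrays shifted to a common median, with quantile normalization run again and without genes dimmer than the median gene, a filter that removes Slc25a2 itself. For same-numbered KO and WT arrays, deviations from the group means correlated at -0.143, -0.079 and -0.0446. For different numbers the correlations ran from 0.0001 to 0.0947. Deviations from a mean of 3 arrays sum to 0, so these values cannot decide whether the numbers pair arrays. With the replicate block 2 members were higher, beside 4.6% of all genes. Members with all KO arrays above all WT arrays, 4 in the main fit, numbered 5 to 15 with each array left out and 2 without dim genes. Those below, 3 in the main fit, numbered 3 to 6 with each array left out. Fewer arrays make separation easier by construction. Of all genes 7.96% lay above and 5.97% below in the main fit. Those shares were not computed for the alternatives, so nothing is read from these counts.

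Of 425 differences of 27 of the named members under alternatives, 394 kept their sign and 31 turned, and 0 passed adjustment. The members that turned had main differences between -0.19 and 0.17. With each array left out, the differences ran from -0.091 to 0.065 for Slc25a3, -0.15 to 0.036 for Slc25a5, -0.22 to 0.13 for Slc25a10, -0.021 to 0.14 for Slc25a11, -0.082 to 0.36 for Slc25a21, -0.0065 to 0.19 for Slc25a31, -0.015 to 0.013 for Slc25a36, -0.13 to 0.11 for Slc25a25 and -0.18 to 0.0018 for Slc25a13. With the lymphocyte level as a covariate, Slc25a11 was at -0.065, Slc25a21 at -0.20, Slc25a31 at -0.021, Slc25a13 at 0.029 and Slc25a37 at 0.069. With arrays shifted to a common median, Slc25a3 was at 0.024, Slc25a10 at 0.00014 and Slc25a36 at 0.027. With the mean of all probe sets, Slc25a5 was at 0.018, Slc25a40 at 0.071 and Slc25a36 at 0.028. With the muscle level as a covariate, Slc25a10 was at 0.0092. The cause of these turns was not tested. Of the 46 members, 17 were dimmer than the median gene, and small differences of such genes are the least certain.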

Other observations

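Carriers of heme and iron supply were set beside red cell genes. Slc25a37, mitoferrin 1, which brings iron into the mitochondria of red cell precursors, read 8.35, 8.65 and 7.97 in KO against 8.49, 8.64 and 8.41 in WT. Its difference of -0.19 (interval -0.60 to 0.22) was -0.014 without KO replicate 3. Slc25a28, mitoferrin 2, differed by 0.12 (interval -0.16 to 0.40), and the glycine carrier Slc25a38 by 0.03 (interval -0.21 to 0.27). Of 10 listed erythroid genes 4 were measured, with levels of -0.21, 0.21 and -0.18 in KO against -0.23, 0.12 and 0.29 in WT, and 0 of them had an unadjusted p under 0.05 in limma's fit.

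Members brighter than the median gene, 29 in number, had a median difference of 0.12 with 21 positive. The 17 dimmer members had a median of 0.05 with 11 positive. In level the brighter members were at 0.06, -0.06 and 0.19 in KO against -0.07, 0.03 and -0.16 in WT, and the dimmer ones at 0.00, 0.01 and 0.06 in KO against 0.01, -0.06 and -0.02 in WT.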
